A study of Mus musculus with 6 samples.

Results

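Caveolae are flask-shaped pits of the plasma membrane, and the proteins that coat them are encoded by *Cav1*, *Cav2*, *Cavin1*, *Cavin2*, *Cavin3* and *Ehd2*. Caveolin-1, the product of *Cav1*, is inserted in the inner leaflet of the membrane and forms the scaffold, and caveolin-2 joins it in mixed oligomers. Cavin-1 is the adaptor that gathers the other cavins around the caveolin scaffold, cavin-2 bends the membrane, cavin-3 is a cavin first described as a binding partner of protein kinase C delta, and EHD2 is an ATPase that sits at the neck of the pit and holds it at the surface. White adipocytes are among the cells richest in caveolae, which serve them as a membrane reserve when a lipid droplet swells, and loss of caveolin-1 or cavin-1 causes generalized lipodystrophy in people and fat loss in mice. The 6 genes were taken by symbol from a table of 37384 gene symbols. All 6 were found in it, and all 6 passed the filter on low counts that left 15674 genes for testing.

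The libraries came from floated adipocytes of inguinal subcutaneous white adipose tissue (scWAT) of male mice at postnatal day 7, 3 libraries per genotype (L1L2-FF and L1L2-AKO), and the tissue of 4 mice was pooled for every library. All mice carried the floxed alleles Lats1f/f and Lats2f/f, and L1L2-AKO mice carried AdipoqCre in addition. Cre is made where the *Adipoq* promoter is active, so that other cells that floated with the adipocytes keep both kinases, and a count per gene is a sum over all cells of the floated fraction. LATS1 and LATS2 are the Hippo pathway kinases that restrain the coactivators YAP and TAZ. Library totals lay between 30548473 and 32107917 counts. The targeted *Lats1* had 76.1, 94.3 and 78.4 CPM (the count relative to the library size, scaled by TMM) in L1L2-FF and 38.9, 41.2 and 40.5 CPM in the libraries labelled L1L2-AKO (log2 fold change -1.04, adjusted p = 0.00131). *Lats2* had 74.9, 85.7 and 68.5 CPM against 96.2, 126 and 135 CPM (0.64, adjusted p = 0.0278). *Lats2* was thus higher in counts and went against the label, and directions below are those between the labels. The call of *Lats2* was lost without L1L2-FF replicate 1 or 3 (adjusted p = 0.1 and 0.0651) and without L1L2-AKO replicate 2 or 3 (0.104 and 0.0946), with a log2 fold change of 0.55 to 0.78 over the fits without a library. A count summed over a gene also takes in reads from exons that Cre leaves in place, and 41.2% of the 50-base stretches of *Lats2* are shared with the overlapping *Gm49361*, so that *Lats2* is an uncertain check of the labels. The labelled cell type was checked with 10 genes of mature adipocytes. All 10 were detected, and their summed level was 20466 to 22592 CPM in L1L2-FF and 11740 to 14190 CPM in the libraries labelled L1L2-AKO.

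To set the 6 genes beside each other, their counts were divided by exon length and scaled to the same sum in every library (TPM). *Cav1* was by far the most abundant of them, with 3744 ± 432 TPM (SD, n = 3) in L1L2-FF, where it ranked 20 among all genes with an annotated length, and with 3156 ± 708 TPM and rank 24 in the libraries labelled L1L2-AKO. In L1L2-FF it was followed by *Cavin1* with 1182 ± 42.5 TPM, *Ehd2* with 1092 ± 104 TPM, *Cavin2* with 775 ± 30.1 TPM, *Cav2* with 705 ± 97.7 TPM and *Cavin3* with 321 ± 129 TPM. The ranges of *Cavin1* and *Ehd2* overlapped there, as did those of *Cavin2* and *Cav2*. In the libraries labelled L1L2-AKO the order was *Cav1*, *Cavin1* with 1491 ± 63.2 TPM, *Cavin2* with 1397 ± 31.8 TPM, *Ehd2* with 1206 ± 121 TPM, *Cavin3* with 602 ± 82.9 TPM and *Cav2* with 597 ± 125 TPM. The neighbours *Cavin1* and *Cavin2* overlapped in range, and so did *Cavin3* and *Cav2*. Thus *Cavin2* stood below *Ehd2* in L1L2-FF and above it, without overlap, in the libraries labelled L1L2-AKO. The 6 genes together took 0.87% to 1.03% of all counts in L1L2-FF and 0.867% to 1.05% in the libraries labelled L1L2-AKO.

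The genotypes were then compared gene by gene with edgeR's quasi-likelihood test, adjusted by Benjamini-Hochberg over all 15674 tested genes. Of the 6 genes, 1 rose, *Cavin2*, and 0 fell (0 also at an unadjusted p under 0.05, with DESeq2 and with limma-voom). Of all tested genes 16.5% were called, 9.28% higher and 7.18% lower. *Cavin2* and *Cavin3* were higher at an unadjusted p under 0.05 and with DESeq2, and *Cavin2* alone with limma-voom. By these 3 criteria 2423, 1898 and 1428 of all tested genes were higher, and 2405, 1602 and 1023 lower. In 3 of the 6, all of them cavins, the 3 libraries labelled L1L2-AKO lay above all L1L2-FF libraries, while 36.4% of all tested genes did not overlap between the genotypes and 18% did so in this direction. None of these counts can be read as particular to caveolae genes. The median log2 fold change was 0.15 over the 6 genes and -0.02 over all tested genes.

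The caveolins did not pass the test. *Cav1* (chromosome 6, 17306335 to 17341452 of mm10, plus strand, ENSMUSG00000007655.16) had 4796, 3627 and 4991 CPM in L1L2-FF replicates 1 to 3 and 4109, 2855 and 3600 CPM in the libraries labelled L1L2-AKO. Replicate 2 was the lowest of each genotype, and the genotypes overlapped. The log2 fold change was -0.34 with a standard error of 0.225 (adjusted p = 0.352) and a 95% interval from -0.86 to 0.17, so that these libraries leave a wide range of differences possible. *Cav2* (chromosome 6, 17281185 to 17289115, plus strand, ENSMUSG00000000058.6) lies upstream of *Cav1* with 17219 bases between them. It had 825, 658 and 965 CPM in L1L2-FF and 740, 524 and 674 CPM in the libraries labelled L1L2-AKO. Its log2 fold change was also -0.34 with a standard error of 0.198 (adjusted p = 0.298) and a 95% interval from -0.79 to 0.12. In both genes the highest library was L1L2-FF replicate 3 and the lowest L1L2-AKO replicate 2. An antisense gene that spans the region of both, *Gm15581*, shares no exon sequence with either.

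Among the cavins, *Cavin2* was the gene that rose. *Cavin2* (chromosome 1, 51289126 to 51302960, plus strand, ENSMUSG00000045954.7) had 805, 801 and 844 CPM in L1L2-FF and 1264, 1371 and 1547 CPM in the libraries labelled L1L2-AKO. The lowest of the latter was well above the highest of the former. The means differed 1.71-fold and the log2 fold change was 0.77 (standard error 0.149, 95% interval 0.43 to 1.12) and an adjusted p of 0.0116. Leaving out L1L2-FF replicate 1 raised the adjusted p to 0.0628 with a log2 fold change of 0.76, and the call held in the other 5 fits without a library.

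*Cavin1* (chromosome 11, 100956733 to 100970887, minus strand, ENSMUSG00000004044.9) had 1517, 1408 and 1463 CPM in L1L2-FF and 1627, 1647 and 1968 CPM in the libraries labelled L1L2-AKO. The genotypes did not overlap, but the distance between them was small and the log2 fold change of 0.26 (standard error 0.159, 95% interval -0.11 to 0.62) did not pass the test (adjusted p = 0.326). *Cavin3* (chromosome 7, 105480083 to 105482300, minus strand, ENSMUSG00000037060.3) varied most within a genotype, with 188, 103 and 269 CPM in L1L2-FF against 342, 276 and 358 CPM in the libraries labelled L1L2-AKO. The lowest of the latter was only just above L1L2-FF replicate 3. Its log2 fold change of 0.80 was as large as that of *Cavin2*, with a larger standard error (0.308), a 95% interval from 0.09 to 1.51 and an adjusted p of 0.119. The adjusted p was 0.0345 without L1L2-FF replicate 3, with a log2 fold change of 1.16, and 0.12 without L1L2-FF replicate 2, with a log2 fold change of 0.51. DESeq2's Wald test gave 0.0459. The exons of *Cavin3* overlap those of *Gm45667* on the other strand, and since the strand setting of the counting is not given in the sources used here, reads of the pair could not be separated.

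*Ehd2* (chromosome 7, 15946958 to 15967567, minus strand, ENSMUSG00000074364.6), the neck ATPase, had 2008, 1623 and 2178 CPM in L1L2-FF and 2065, 1802 and 2160 CPM in the libraries labelled L1L2-AKO. These values interleave. The log2 fold change was 0.05 (standard error 0.182, adjusted p = 0.881), with a 95% interval from -0.37 to 0.47, and it was -0.06 without L1L2-FF replicate 2.

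**Figure D1:**
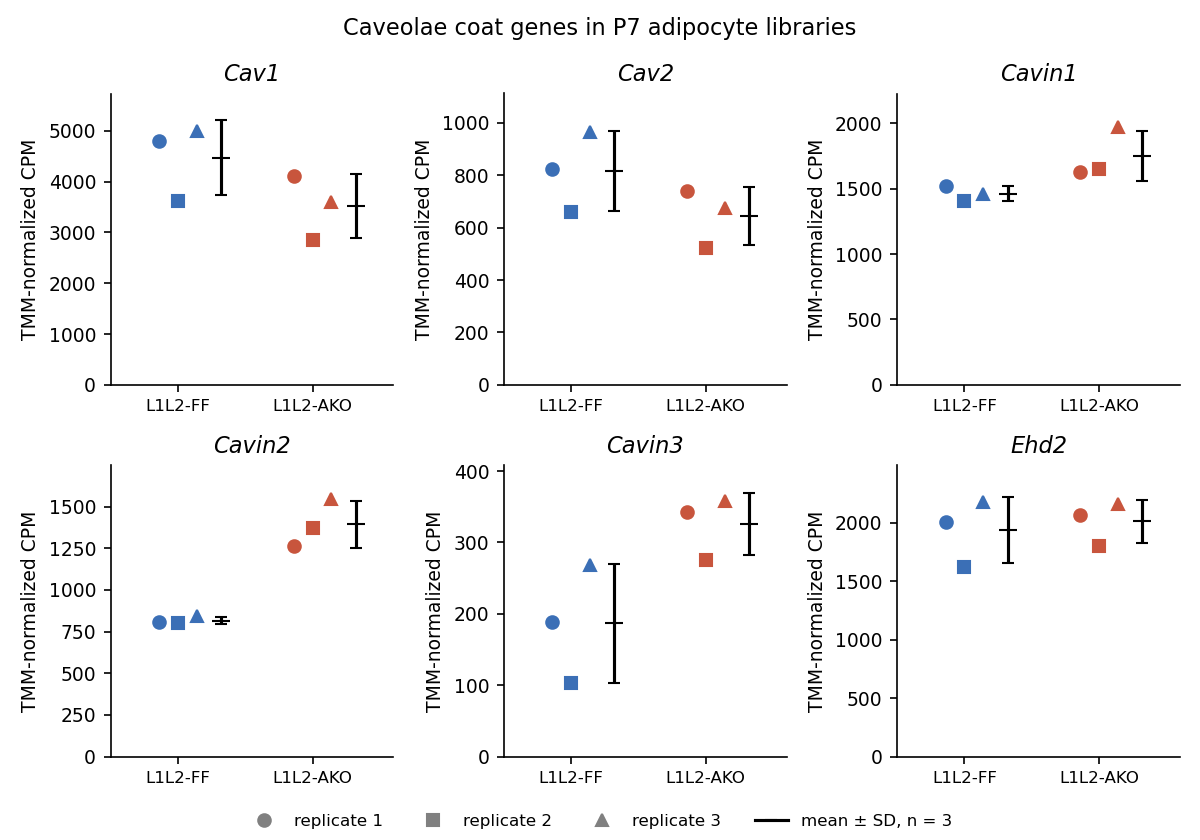
TMM-normalized CPM (vertical axes, each from 0) of the 6 caveolae coat genes in 3 L1L2-FF libraries (blue) and 3 libraries labelled L1L2-AKO (red), with the mean and SD of each genotype in black. *Cavin2* rose from 817 ± 23.9 to 1394 ± 143 CPM, whereas the libraries of *Cav1*, *Cav2* and *Ehd2* overlapped between the genotypes.

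The make-up of the coat transcripts was examined within each library, where the scaling between libraries has no part. Of the summed TPM of the 6 genes, *Cav1* made up 49.2%, 46.1% and 48.1% in L1L2-FF against 41.3%, 34.4% and 35.6% in the libraries labelled L1L2-AKO. *Cavin2* made up 9.31%, 11.5% and 9.18% in L1L2-FF against 14.3%, 18.6% and 17.2% in the libraries labelled L1L2-AKO. For both genes the genotypes were apart, in opposite directions. The shares of a library add up to a fixed total, so that a higher level of one gene lowers the shares of the others. The TPM of *Cav1* itself overlapped, with 3959, 3247 and 4026 in L1L2-FF against 3943, 2572 and 2953 in the libraries labelled L1L2-AKO. The share of *Ehd2* stayed between 13.9% and 14.6% in all 6 libraries. Summed over genes, the caveolins were at 4449 ± 521 TPM in L1L2-FF and 3753 ± 833 TPM in the libraries labelled L1L2-AKO, and the 3 cavins at 2278 ± 70.7 TPM in L1L2-FF and 3490 ± 138 TPM in the other genotype (SD, n = 3 each). A library thus held 0.487, 0.573 and 0.487 cavin transcripts per caveolin transcript in L1L2-FF, against 0.759, 1.09 and 1.02 in those labelled L1L2-AKO. This ratio of sums was formed after the single values had been seen and is given as a description.

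**Figure D2:**
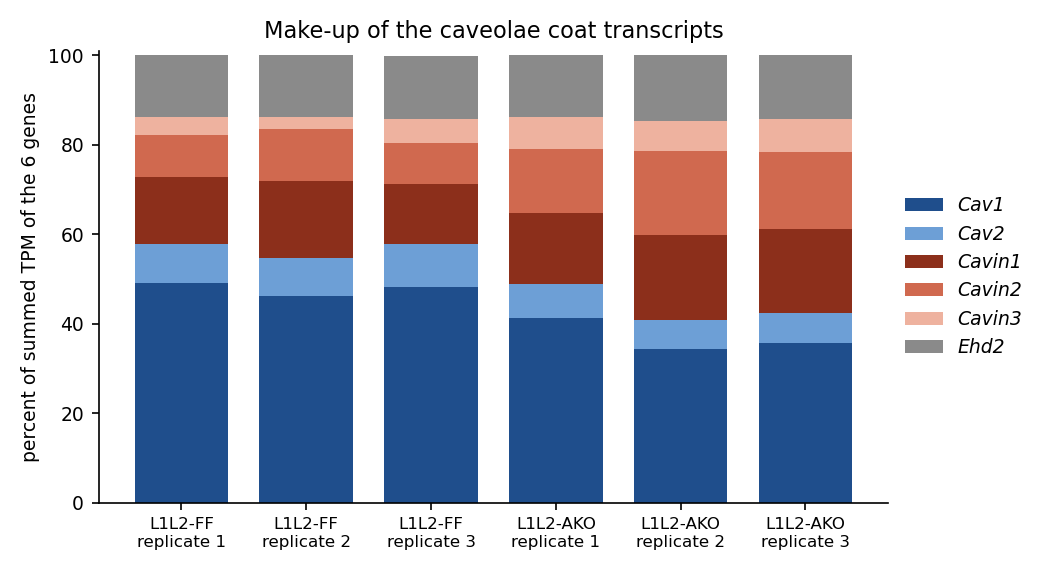
Share of each gene (stacked segments) in the summed TPM of the 6 caveolae coat genes, in percent, for each of the 6 libraries. The *Cav1* segment is 46.1% to 49.2% in L1L2-FF and 34.4% to 41.3% in the libraries labelled L1L2-AKO, and the *Cavin2* segment is wider in the latter.

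Of 5 ratios set between pairs of these genes, 3 did not overlap between the genotypes. How often ratios of other gene pairs do so was not computed, and 36.4% of single tested genes did not overlap in CPM. Ratios that share a gene, such as those with *Cav1* as the divisor, are not separate results. With 3 libraries against 3, the two-sided exact permutation test used for them cannot go below p = 0.1. The ratio of *Cavin1* to *Cav1* was 0.319 ± 0.0476 in L1L2-FF and 0.486 ± 0.0931 in the libraries labelled L1L2-AKO (SD, n = 3 each, exact permutation p = 0.1). That of *Cavin2* to *Cavin1* was 0.656 ± 0.0291 and 0.938 ± 0.035 (SD, n = 3 each, exact permutation p = 0.1), and that of *Ehd2* to *Cav1* was 0.292 ± 0.00975 and 0.389 ± 0.0452 (SD, n = 3 each, exact permutation p = 0.1). The ratio of *Cavin3* to *Cavin1* ranged from 0.158 to 0.397 in L1L2-FF and overlapped with the range of 0.362 to 0.454 in the libraries labelled L1L2-AKO (exact permutation p = 0.3). The ratio of the neighbouring genes *Cav2* to *Cav1* moved least. It was 0.178, 0.187 and 0.2 in L1L2-FF against 0.186, 0.189 and 0.193 in the libraries labelled L1L2-AKO (exact permutation p = 0.9), all within a narrow band although *Cav1* itself spanned 2855 to 4991 CPM.

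**Figure D3:**
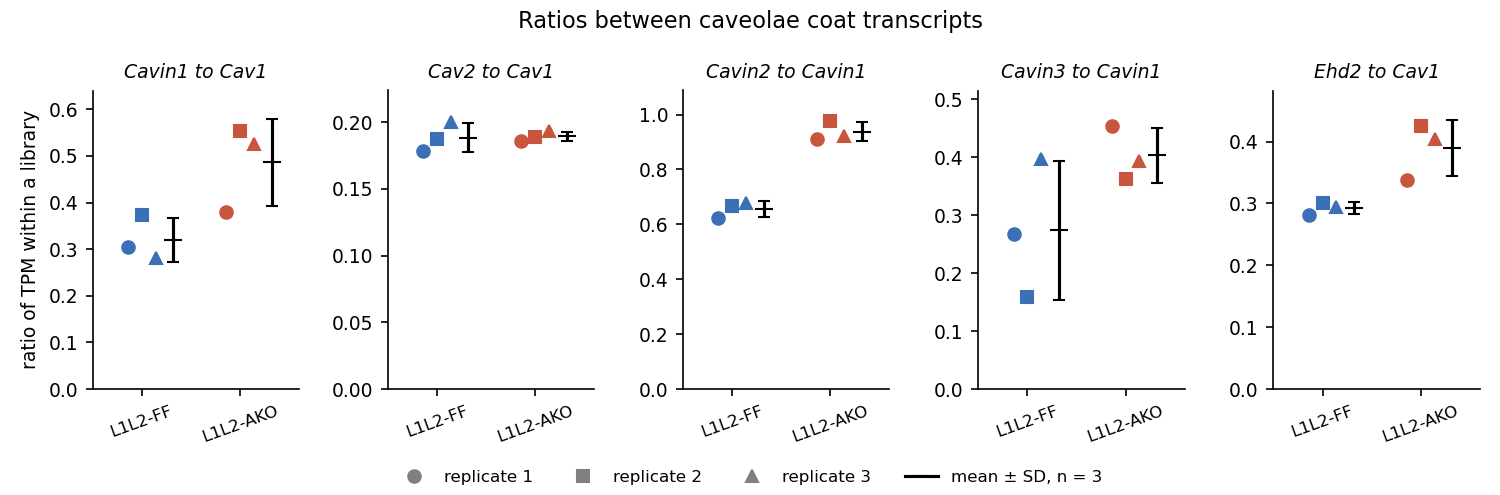
Ratio of TPM within a library (vertical axes, each from 0) for 5 pairs of caveolae coat genes, with one point per library and the mean and SD of each genotype in black. The ratio of *Cav2* to *Cav1* lies between 0.178 and 0.2 in all 6 libraries, and the ratio of *Cavin2* to *Cavin1* lies at 0.623 to 0.678 in L1L2-FF and 0.912 to 0.978 in the libraries labelled L1L2-AKO.

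The genes also differed in how they varied between libraries of one genotype. After the mean of each genotype was subtracted from the log2 CPM values, *Cav1*, *Cav2*, *Cavin3* and *Ehd2* deviated together over the 6 libraries, with Pearson's r of 0.97 for *Cav1* and *Cav2*, 0.89 for *Cav1* and *Ehd2*, 0.81 for *Cav1* and *Cavin3* and 0.96 for *Cavin3* and *Ehd2*. *Cavin1* and *Cavin2* formed another pair, with an r of 0.86, and *Cav1* and *Cavin2* had an r of -0.05. These correlations share libraries and scaling factors and are given as a description. L1L2-FF replicates 2 and 3, which were the lowest and highest L1L2-FF libraries in *Cav1*, *Cav2*, *Cavin3* and *Ehd2*, were also the highest and lowest in the summed markers of macrophages (423 and 216 CPM) and of adipose progenitors (2641 and 1065 CPM). The part of these cells in the spread was not tested. Patterns over the 6 libraries were also compared with 5618 tested genes of a mean log2 CPM of at least 5, the coat genes left out. Closest to *Cav1* were *Col15a1*, *Rbp4* and *Mllt1* (Pearson's r 0.993, 0.988 and 0.982), and closest to *Cavin1* were *Stx5a*, *Cul4b* and *Chmp5* (0.988, 0.988 and 0.982). The adjusted p of the 6 genes so found was 0.119 to 0.495 in edgeR's test between the genotypes. They were picked as the highest of many correlations over 6 libraries, so that a high r follows from the choice. They are given as a description.

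*Cavin2* passed the test and the caveolins did not, and the stretches before their start sites are shown side by side. RefSeq windows were matched for 5 of the 6 genes (*Cavin3* was not matched). For *Cav1*, *Cav2* and *Cavin2*, 1 window each ends just before the start site that GENCODE M21 also gives, and these 250 bases on the plus strand of GRCm38.p6 (mm10) are chr6:17306085-17306334 for *Cav1*, chr6:17280935-17281184 for *Cav2* and chr1:51288876-51289125 for *Cavin2*. Capitals mark a CCAAT box or a GC box (GGGCGG), on either strand.
Cav1: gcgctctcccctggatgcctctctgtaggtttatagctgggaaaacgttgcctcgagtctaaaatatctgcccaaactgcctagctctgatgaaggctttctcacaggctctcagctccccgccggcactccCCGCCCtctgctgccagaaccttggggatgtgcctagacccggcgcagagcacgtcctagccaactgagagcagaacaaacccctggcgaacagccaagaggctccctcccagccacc
Cav2: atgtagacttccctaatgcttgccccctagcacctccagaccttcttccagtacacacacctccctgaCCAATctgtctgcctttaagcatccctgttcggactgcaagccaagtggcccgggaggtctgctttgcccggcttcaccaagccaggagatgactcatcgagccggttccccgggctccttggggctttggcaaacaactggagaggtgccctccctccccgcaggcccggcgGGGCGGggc
Cavin2: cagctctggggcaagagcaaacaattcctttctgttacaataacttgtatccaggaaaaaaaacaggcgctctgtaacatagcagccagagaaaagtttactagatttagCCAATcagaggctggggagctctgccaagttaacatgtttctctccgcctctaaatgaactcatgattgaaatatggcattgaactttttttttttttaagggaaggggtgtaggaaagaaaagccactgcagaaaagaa
These windows of *Cav1* and *Cav2* were rich in G and C (59.6% and 62%), and each holds a GC box, at -118 for *Cav1* (as its reverse complement) and at -9 for *Cav2*, which also holds a CCAAT box at -182, counted to the first base of the match from the start site. A second RefSeq window of *Cav1*, whose start site lies 1305 bases downstream, had 60.8% G and C and neither a GC box nor a CCAAT box. The *Cavin2* window had 40.4% G and C, no GC box and a CCAAT box at -140. Of 32851 RefSeq windows of this length, 32.7% hold the GC box and 33.8% the CCAAT box. The core of the motif bound by the YAP partners TEAD1 to TEAD4, GGAATG on either strand, is in none of these 3 windows. It is also absent from the second *Cav1* window and that of *Ehd2*, and it occurs in 12.6% of all windows. Both *Cavin1* windows of RefSeq overlap and hold the same match, at -247 and -249. Their start sites lie 270 and 272 bases downstream of the one in GENCODE. The CArG box of serum response factor was found in none of the windows of the 5 genes and in 1.47% of all windows. A match or its lack within 250 bases is only a description of these letters.

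Close relatives of the coat genes were then read from the same test. Of 8 other caveolins, cavins, EHD ATPases and pacsins, 7 could be tested, of which 2 rose, 1 fell and 4 did not pass. Their median log2 fold change was 0.11. Among all tested genes 9.28% rose and 7.18% fell. All 3 relatives that changed were EHD genes. *Ehd3*, which encodes an ATPase of recycling endosomes, had 9, 8.57 and 11.5 CPM in L1L2-FF and 109, 152 and 197 CPM in the libraries labelled L1L2-AKO. This 15.8-fold difference of the means was the largest among the tested coat genes and relatives (log2 fold change 3.98, standard error 0.245, adjusted p = 1.8e-04, 95% interval 3.41 to 4.54), and it held in all 6 fits without a library. *Ehd4*, another endosomal EHD ATPase, rose from 64 ± 2.87 to 97.8 ± 13.2 CPM (SD, n = 3 each, log2 fold change 0.61, adjusted p = 0.0147). The adjusted p of *Ehd4* was 0.06 without L1L2-FF replicate 1 and 0.0641 without L1L2-AKO replicate 2. *Ehd1*, which acts in endocytic recycling, fell from 198 ± 6.79 to 148 ± 5.05 CPM (SD, n = 3 each, log2 fold change -0.42, adjusted p = 0.0301), without overlap of the libraries. Its call was lost without L1L2-FF replicate 1 (0.0871) and without L1L2-AKO replicate 1, 2 or 3 (adjusted p 0.0897, 0.116 and 0.0822).

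On the TPM scale *Ehd2* remained the main EHD transcript. It made up 84.9%, 81.9% and 85.4% of the summed TPM of *Ehd1* to *Ehd4* in L1L2-FF against 83%, 80% and 82.1% in the libraries labelled L1L2-AKO. *Ehd3* went from 0.297%, 0.337% and 0.352% to 3.43%, 5.26% and 5.85%. Its mean level in the libraries labelled L1L2-AKO, 70.6 ± 15 TPM, was close to that of *Ehd4* (75.6 ± 15.9 TPM) and below that of *Ehd1* (122 ± 5.51 TPM).

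**Figure D4:**
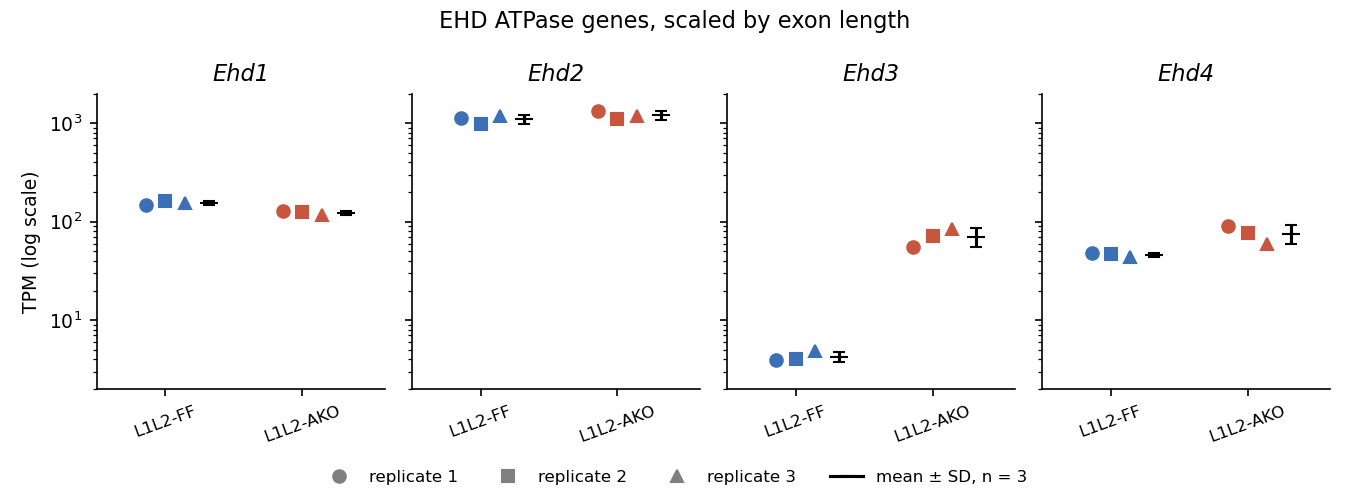
Level of the 4 EHD ATPase genes in TPM on a log axis, with one point per library and the mean and SD of each genotype in black. *Ehd2* lies between 978 and 1333 TPM in all 6 libraries, whereas *Ehd3* goes from 3.9 to 4.87 TPM in L1L2-FF to 55.1 to 85 TPM in the libraries labelled L1L2-AKO.

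The muscle forms of the coat were at or near absence. *Cav3*, the caveolin of muscle, had at most 8 counts in any library and was not tested. *Cavin4*, the muscle cavin, had 27 to 81 counts per library and a log2 fold change of -0.39 (adjusted p = 0.6). Pacsins are membrane-bending proteins, and pacsin 2 takes part in shaping caveolae. *Pacsin2* was at 93.2 ± 5.49 CPM in L1L2-FF and 100 ± 2.12 CPM in the libraries labelled L1L2-AKO (log2 fold change 0.11, adjusted p = 0.529, 95% interval -0.12 to 0.34). *Pacsin3* had a log2 fold change of -0.44 (adjusted p = 0.186), and its exons overlap those of an antisense gene. *Pacsin1*, a neuronal form, was counted 10 to 34 times per library (log2 fold change 0.88, adjusted p = 0.307).

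Other routes at the plasma membrane were read for comparison from 14 genes of the clathrin coat, its AP-2 adaptor, the dynamins that cut vesicles off, and the flotillins. Of these, 5 rose, 1 fell and 8 did not pass, with a median log2 fold change of 0.33, while 9.28% of all tested genes rose and 7.18% fell. The fitted level was above that of L1L2-FF in 13 of the 14 and in 7512 of all 15674 tested genes. *Cltb*, a clathrin light chain, rose from 47.1 ± 6.12 to 118 ± 21.8 CPM (SD, n = 3 each, log2 fold change 1.33, adjusted p = 0.00178). *Ap2a2*, an alpha subunit of AP-2, rose from 124 ± 7.6 to 286 ± 54.6 CPM (SD, n = 3 each, log2 fold change 1.21, adjusted p = 0.00238). Both calls held in all 6 fits without a library. The clathrin heavy chain *Cltc* (log2 fold change 0.52, adjusted p = 0.037) and the raft proteins *Flot1* (0.83, adjusted p = 0.0391) and *Flot2* (0.60, adjusted p = 0.0309) also rose. *Cltc* lost its call in every fit without a library, with an adjusted p of 0.0539 to 0.137, and *Flot1* and *Flot2* lost theirs in 4 of the 6, without L1L2-FF replicates 1 and 2 and L1L2-AKO replicates 2 and 3, with an adjusted p of at most 0.127. *Dnm3* fell at a low level, from 5.03 ± 1.14 to 2.01 ± 0.409 CPM (SD, n = 3 each, log2 fold change -1.32, adjusted p = 0.0139), and was not called without L1L2-FF replicate 1 or L1L2-AKO replicate 3 (up to 0.0614).

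A further list held 6 proteins that reside in caveolae of adipocytes or endothelium and 5 kinases that bind or phosphorylate coat proteins. Of these 11 genes, 1 rose, 2 fell and 8 did not pass, and the median log2 fold change was -0.44. In 9 of the 11, and in 8162 of all 15674 tested genes, the fitted level was below that of L1L2-FF. At an unadjusted p under 0.05 in edgeR's test, 6 were lower and 1 higher, against 2405 and 2423 of all tested genes. Over all tested genes 9.28% were called higher and 7.18% lower. *Slc2a4*, the insulin-responsive glucose transporter GLUT4, fell from 229 ± 46.1 to 65.1 ± 15.6 CPM (SD, n = 3 each, log2 fold change -1.81, adjusted p = 0.00151). *Slc27a1*, the fatty acid transport protein FATP1, fell from 328 ± 99 to 120 ± 32.5 CPM (SD, n = 3 each, log2 fold change -1.45, adjusted p = 0.00937). *Prkcd*, the kinase that binds cavin-3, rose from 25.1 ± 3.78 to 38.8 ± 2.03 CPM (SD, n = 3 each, log2 fold change 0.63, adjusted p = 0.0175), and was not called without L1L2-FF replicate 1 or L1L2-AKO replicate 2 (up to 0.0761). The abundant *Cd36*, a fatty acid translocase, and *Aoc3*, an amine oxidase of the adipocyte surface, had log2 fold changes of -0.41 and -0.46 that did not pass (adjusted p = 0.169 and 0.137). The 4 genes of generalized lipodystrophy, *Agpat2*, *Bscl2*, *Cav1* and *Cavin1*, gave 0 calls in edgeR's test, 0 at an unadjusted p under 0.05, and 0 with DESeq2 or limma-voom. *Agpat2*, an enzyme of triglyceride synthesis, varied from 292 to 1266 CPM among the L1L2-FF libraries alone, with replicate 2 the lowest and replicate 3 the highest.

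**Figure D5:**
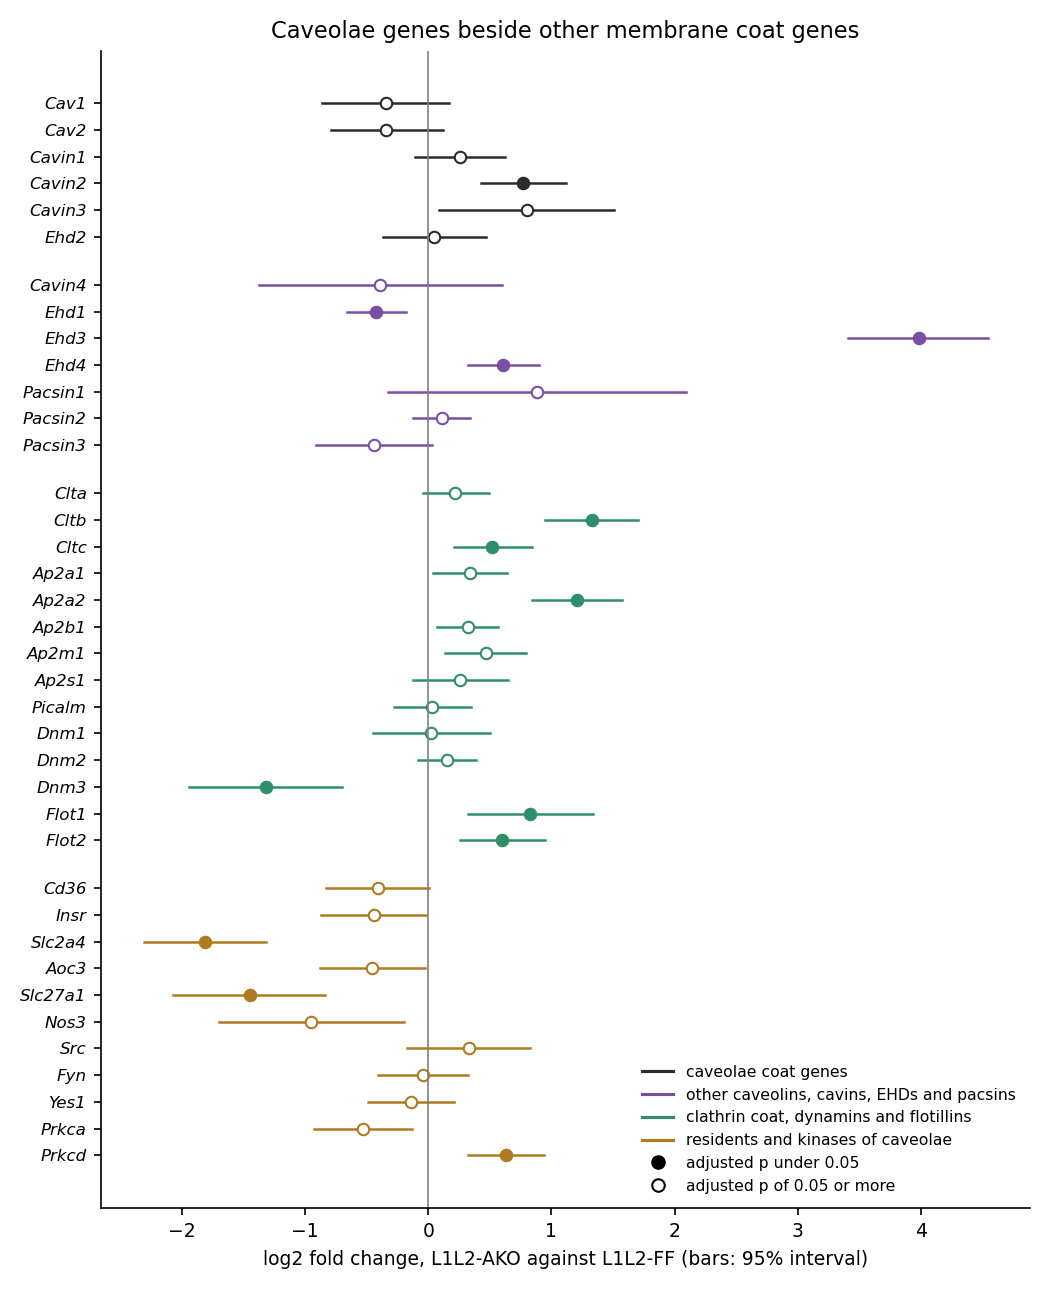
Log2 fold change of the libraries labelled L1L2-AKO against L1L2-FF with its 95% interval (horizontal axis, 3 libraries each) for the tested caveolae coat genes, their relatives, 14 genes of other membrane coats, and residents and kinases of caveolae. Filled points have an adjusted p under 0.05 in edgeR's test. Of the 6 coat genes only *Cavin2* is filled, and *Ehd3* at 3.98 lies farthest from 0.

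Cells other than adipocytes also make caveolae, so the levels of their markers are given beside these values. Fewer cells of a type and less RNA per cell cannot be told apart in such libraries. For comparison, edgeR called 9.28% of all tested genes higher and 7.18% lower. At an unadjusted p under 0.05 in its test, 2423 of all 15674 tested genes were higher and 2405 lower. DESeq2 called 1898 of them higher and 1602 lower, and limma-voom 1428 and 1023. Of 10 endothelial markers, 0 were called in either direction by edgeR or limma-voom, 2 were lower at an unadjusted p under 0.05 and 1 was lower with DESeq2. Their summed level was 2060 to 2751 CPM in L1L2-FF and 1193 to 2583 CPM in the libraries labelled L1L2-AKO, where replicate 3 was the lowest. *Cavin2* was highest in that 1 library, and the part of endothelial cells in its level was not tested. Of 10 mural cell markers, 3 rose (*Acta2*, *Tagln* and *Notch3*) and 2 fell (*Rgs5* and *Cspg4*). At an unadjusted p under 0.05, 4 were higher and 4 lower, and with DESeq2 3 were higher and 4 lower. The sums overlapped (1113 to 1462 and 1188 to 1447 CPM), but rises and falls cancel within them. *Rgs5* went from 550 ± 112 to 236 ± 78.8 CPM and *Acta2* from 58.6 ± 9.28 to 202 ± 58.2 CPM (SD, n = 3 each). Of 10 progenitor markers, 2 fell, 6 were lower at an unadjusted p under 0.05 and 3 were lower with DESeq2. In 9 of the 10 the fitted level was below that of L1L2-FF, with a median log2 fold change of -0.46. Their sums of 1065 to 2641 and 999 to 1320 CPM overlapped, and *Gsn* alone took 512 to 1847 CPM in L1L2-FF. All 10 macrophage markers rose, from sums of 216 to 423 CPM to 835 to 936 CPM, and their part in the higher *Cavin2* and *Ehd3* was not tested. Of the mature adipocyte markers, 4 of 10 fell (*Adipoq*, *Pparg*, *Cfd* and *Retn*), with a median log2 fold change of -0.60. At an unadjusted p under 0.05, 7 were lower, 7 were lower with DESeq2, and in 9 the fitted level was below that of L1L2-FF. The sums did not overlap, and *Cfd* alone went from 3718 ± 1243 to 211 ± 52.5 CPM (SD, n = 3 each, log2 fold change -4.14). Of 6 mesothelial markers 3 could be tested, of which 2 rose, with sums over the 6 of 4.02 to 5.16 and 4.1 to 6.42 CPM. The other, *Lrrn4*, was lower without overlap (log2 fold change -0.99) but did not pass edgeR's test (adjusted p = 0.0717). The muscle markers summed to at most 19.3 CPM. Of these, 0 of the 4 tested were called by edgeR, 2 were lower at an unadjusted p under 0.05, 2 with DESeq2 and 1 with limma-voom. Of 8 Schwann cell markers, 5 fell and 1 rose, with a median log2 fold change of -1.77. In 7 of the 8, and in 18.4% of all tested genes, every library labelled L1L2-AKO lay below all L1L2-FF libraries. The sums of 838 to 1724 and 755 to 1398 CPM overlapped, and *Pmp22*, the gene that rose and a myelin protein, took 351, 465 and 521 CPM of them in L1L2-FF and 603, 1005 and 1100 CPM in the libraries labelled L1L2-AKO.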

How the data were processed

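RNA of floated scWAT adipocytes at postnatal day 7 was compared between 3 L1L2-FF and 3 L1L2-AKO libraries. Paired ends were read on a BGISEQ-500. The authors used HISAT2 2.1.0 for alignment to mm10, SAMtools for sorting and StringTie 1.3.5 afterwards. The deposited values are raw whole-number counts per gene symbol. The annotation, the counting program and its strand setting are not given in the sources used here. Groups and replicate numbers were taken from the submitters' titles.

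Counts were filtered with filterByExpr of edgeR 4.0.16 (minimum count 10, minimum total 15), scaled by TMM and tested two-sided with edgeR's quasi-likelihood test in R 4.3.3, with Benjamini-Hochberg adjustment over 15674 genes, a threshold of 0.05 and no pairing. The standard error of a gene was its log2 fold change, without sign, divided by the root of F. TPM used union exon lengths of GENCODE M21, which matched 36961 symbols directly and 385 through a synonym and left 38. Promoter windows are those of RefSeq. Ratios were compared by an exact permutation test in SciPy 1.17.1. Genes that could be named were the 6 coat genes, *Lats1* and *Lats2*, the 8 relatives, and the 3 genes closest to *Cav1* and to *Cavin1*. The 3 most abundant and all called genes of the other lists could also be named. Cell type markers are mostly given as counts and sums. The genes and lists were chosen with earlier results of these data known. Alternatives were other scalings, filters and tests (DESeq2 1.42.0, limma-voom with limma 3.58.1), a 2-fold threshold, a replicate block and each library left out in turn. The tests across all genes were also run on simulated counts with known changes. Replicates of a genotype differed by more than sampling noise. The coat genes are counted so deeply that counting error is small beside the spread between libraries, and this spread limits their precision.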

Additional observations from a re-analysis of the deposited data

How the results depend on the processing

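*Cavin2* kept its direction under every alternative run and lost its call with an added threshold of 2-fold and without L1L2-FF replicate 1. The number of coat genes called was 2, *Cavin2* and *Cavin3*, with DESeq2's Wald test, 0 with the 2-fold threshold and 0 to 2 with each library left out, and 0 coat genes were called lower in any fit. The numbers with the 2-fold threshold were 1 among the relatives, 0 among the clathrin, dynamin and flotillin genes, 1 among the residents and kinases and 393 among all genes (290 higher and 103 lower), since the threshold itself asks for more. Leaving out each library gave 1 to 4, 2 to 7, 2 to 6 and 1281 to 2845 (777 to 1552 higher, 467 to 1293 lower), against 3, 6, 3 and 2580 (1455 and 1125), and 0 to 1 for the lipodystrophy genes (*Bscl2*, without L1L2-FF replicate 2). Of all genes, 1290 were called once L1L2-FF replicate 1 was left out, and 1281 or 1374 once replicate 2 or 3 labelled L1L2-AKO was. DESeq2 called 5 residents and kinases, with *Cd36* and *Nos3* added. With a library left out, the sign changed in *Ehd2* (-0.06 to 0.14) and in the log2 ratio of *Cav2* to *Cav1* (-0.03 to 0.06), both near 0. It also changed in the sparsely counted *Cavin4* (-0.67 to 0.18), from -0.39 with all libraries to 0.18 without L1L2-FF replicate 2, which held 81 counts. The cause was not tested.

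The deviations of samples of the same replicate number had correlations of 0.188, 0.255 and -0.0544, and those of different numbers -0.324 to 0.211. With 3 libraries per genotype these values cannot settle whether the numbers pair the libraries. With a replicate block 2 coat genes were called, *Cavin2* and *Cavin3* (adjusted p = 0.0331 in edgeR's test), *Ehd1* and *Cltc* lost their calls (0.0538 and 0.0546), and 2514 genes were called in all.

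With 3 libraries per genotype, differences the size of those of *Cav1* and *Cavin1* are within the error, and the exact test of a ratio cannot pass 0.05. Exon lengths do not enter the CPM values or edgeR's test, nor the log2 difference between genotypes in a ratio of a pair of genes. They do enter the TPM levels, shares and sums that were set between the genotypes. Protein was not analysed here.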
